A study of Mus musculus with 8 samples.

Results

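The cell cycle and proliferation genes described here are 36 mouse genes chosen by name: the D, E, A and B type cyclins, the cyclin dependent kinases, 3 kinase inhibitors, RB and E2F factors, the MCM helicase, enzymes of DNA synthesis, and mitotic genes that are used as markers of dividing cells. Of these, 33 had a row in the deposited table and all 33 passed the filter on low values, among 14312 genes tested of 14317 mouse genes in the table. Ccnb1, Bub1b and Foxm1 had no row. The table holds no row with fewer than 81 reads over the 8 libraries, which is the floor that the 33 genes lie above. The question was whether these genes differed between livers of vehicle and androgen treated females.

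Liver RNA of 8 female mice was sequenced, 4 in each of the groups Con-Veh and Con-DHT, with 1 library per mouse. All were fed a western diet (WD) during a treatment of 8.5 weeks. The Con-DHT mice carried a 10 mm silastic pellet of dihydrotestosterone (DHT), an androgen that is not converted to estrogen, and the Con-Veh mice an empty pellet, first implanted at 7 weeks of age. The labels give the genotype of both groups as WT, and the study's methods describe an overnight fast before the livers were taken. Each deposited value is the number of reads on a gene divided by a size factor of the library, and values below are on this scale unless a fold change is named. Reads on mouse genes were between 14240001 and 17815944 per Con-Veh library and between 13123962 and 15205299 per Con-DHT library, and a single read was worth between 0.870 and 1.10 units of value. The hepatocyte markers Alb, Apoa1 and Ttr were abundant in every library, with mean values of 928460, 147510 and 43640 in Con-Veh and 640920, 153400 and 40605 in Con-DHT, as the labelled tissue implies.

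In a dividing cell, D type cyclins with CDK4 or CDK6 and then E type cyclins with CDK2 phosphorylate the RB family, which releases E2F factors and turns on the genes of DNA replication. The MCM2 to MCM7 proteins form the ring that unwinds DNA, and a later wave of genes (cyclins A and B, CDK1, PLK1, Aurora A, survivin) runs mitosis. Adult hepatocytes are mostly at rest and can enter the cycle again after loss of tissue. Transcripts of this kind in whole liver can come from hepatocytes or from other dividing cells, and in these bulk samples fewer cells of a type and less RNA per cell cannot be told apart.

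As a group these genes differed little between Con-DHT and Con-Veh livers. With a threshold of 0.05 on the adjusted p (limma on log2(value + 1), Benjamini-Hochberg adjustment over every tested gene), Mcm4 and Mcm6 were higher in Con-DHT and Aurka was lower, which is 3 of 33 or 9.09%. Over all 14312 tested genes, 1032 passed, which is 7.21%, with 4.6% higher and 2.61% lower, so that the share of cell cycle genes was near the background. The groups did not overlap for 4 of the 33 genes, Mcm4, Mcm6 and Rb1 above and Aurka below, against 15.1% of all tested genes. The median log2 fold change of the 33 genes was 0.069, with 21 values above and 12 below 0, and that of all tested genes was -0.0081. The count tests on the recovered reads gave the same 3 genes with edgeR, where 7.15% of all tested genes passed, and these 3 with Cdkn1a in DESeq2, where 11% passed. When the libraries were instead scaled to the spike-in RNA, the median of all tested genes moved to 0.19 and that of the 33 genes to 0.26, and none of Mcm4, Mcm6 and Aurka passed the threshold, with log2 fold changes of 1.05, 0.99 and -0.80.

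**Figure D1:**
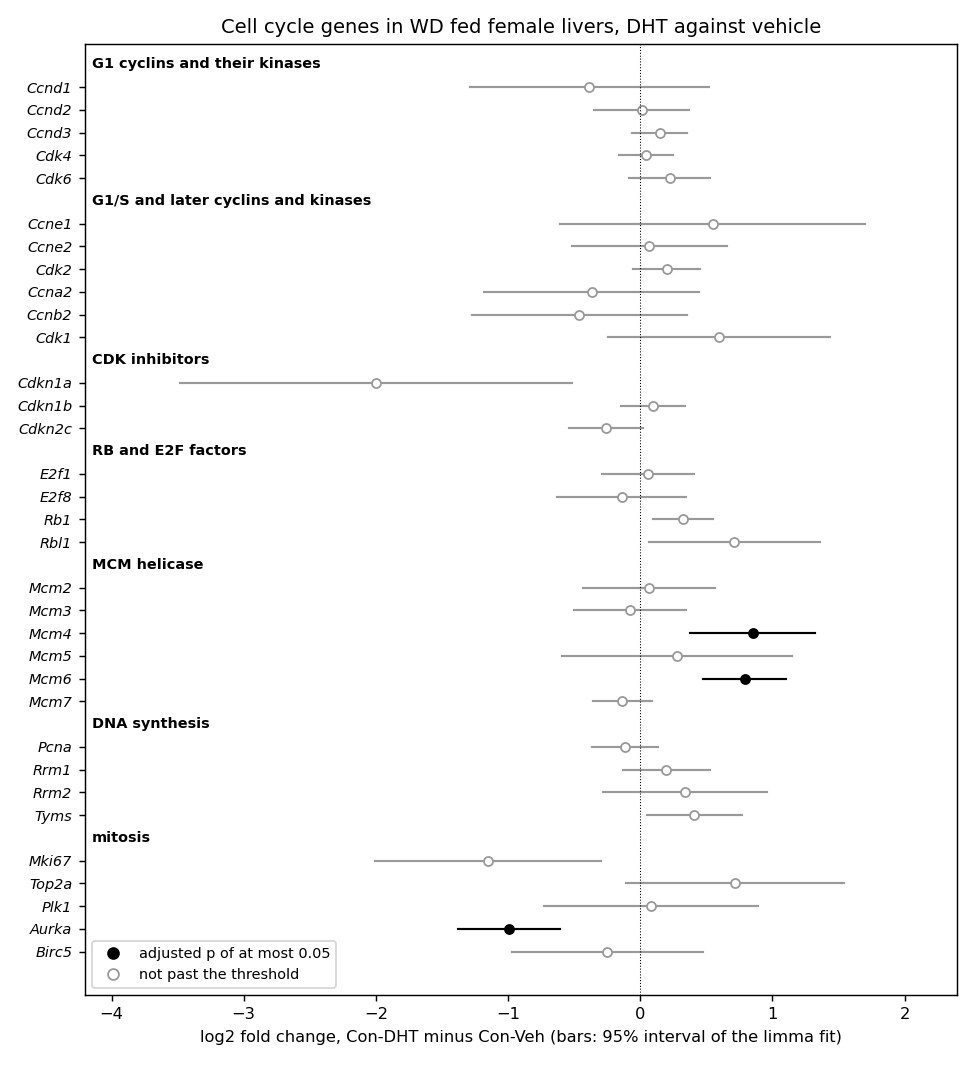
Log2 fold change of the 33 measured cell cycle genes (horizontal axis, Con-DHT minus Con-Veh, 4 mice per group) with 95% intervals of the limma fit, in order of their role in the cycle. Filled points mark Mcm4 and Mcm6, which were higher, and Aurka, which was lower in Con-DHT. Open points missed the threshold, and the interval of Cdkn1a is the widest.

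Promoter sequences are shown for Mcm6 and Aurka, which passed the test in opposite directions, and for Mcm10, the replication gene with the largest change among those described below. Each run is the 150 bases before the start of the gene, 5′ to 3′ on the gene's strand, from RefSeq (GRCm38.p6). Capitals mark matches, on either strand, to an E2F motif (TTGGCGC or TTCCCGC), to the CHR element of mitotic genes (TTTGAA) or to the CCAAT box, which reads ATTGG on the other strand.

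Mcm6, chr1:128359706-128359855, minus strand: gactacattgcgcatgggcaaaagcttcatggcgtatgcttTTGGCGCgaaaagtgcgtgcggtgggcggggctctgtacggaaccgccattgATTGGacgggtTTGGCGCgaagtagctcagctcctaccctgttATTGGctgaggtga

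Mcm10, chr2:5012792-5012941, minus strand: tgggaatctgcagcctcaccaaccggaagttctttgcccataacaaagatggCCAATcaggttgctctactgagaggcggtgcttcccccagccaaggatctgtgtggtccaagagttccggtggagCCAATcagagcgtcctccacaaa

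Aurka, chr2:172370571-172370720, minus strand: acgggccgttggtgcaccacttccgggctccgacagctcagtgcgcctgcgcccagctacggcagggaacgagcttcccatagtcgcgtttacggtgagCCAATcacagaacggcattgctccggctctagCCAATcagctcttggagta

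The Mcm6 window holds TTGGCGC at 109 and 46 bases before the start and a CCAAT box on the other strand at 57 and 14 bases. The Mcm10 window holds CCAAT at 98 and 23 bases and the Aurka window at 51 and 19 bases before the start, and neither holds one of the E2F forms or TTTGAA in these letters. Of the 36 genes, 29 had an entry in the promoter table, and Mcm4, Rb1, Ccnd1, Ccnd2, Ccne2, Ccna2 and Foxm1 had none. Within the same 150 bases, CCAAT was present in 19 of the 29 genes against 24.5% of all 32851 promoters. TTTGAA was present in 5 against 9.07%, TTGGCGC in 5 against 1.35% and TTCCCGC in 4 against 2.59%. A gene was counted once if any of its entries matched, and the share of all promoters is over single entries. At least 1 of the E2F forms was present in 9 of the 29, against 3.87% of all promoters. These matches describe the sequence and are not measured binding sites.

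Cell cycle entry was represented by the cyclins D1, D2 and D3 (Ccnd1, Ccnd2, Ccnd3) and their kinases Cdk4 and Cdk6, and none of the 5 passed the test. Ccnd1, the cyclin most closely tied to the entry of hepatocytes into the cycle, was 685, 319, 307 and 720 in the Con-Veh livers and 513, 627, 185 and 279 in the Con-DHT livers. Both groups held high and low mice, and the groups overlapped widely, with a log2 fold change of -0.38 (95% interval -1.29 to 0.52, limma adjusted p = 0.62). The other 4 genes were steadier. Ccnd3 was 721 ± 46.4 (SD, n = 4) in Con-Veh and 801 ± 93.1 in Con-DHT, and Cdk4 was 542 ± 34.3 and 559 ± 62.9. For Cdk4 the 95% interval of the log2 fold change ran from -0.16 to 0.25, and for Ccnd2 from -0.35 to 0.37. Cdk6 had a log2 fold change of 0.22 and Ccnd3 of 0.15, with limma adjusted p-values of 0.37 and 0.39. Part of the exon sequence of Ccnd1 (23.4%) and of Cdk4 (19.7%) overlaps a gene on the other strand in GENCODE M21. The strand setting of the counting is not given in the sources used here, so reads from such a stretch cannot be assigned to one gene.

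Of the 3 kinase inhibitors, Cdkn1a spread widely between mice and the others were steady. Cdkn1a (ENSMUSG00000023067, chromosome 17) encodes p21, an inhibitor that is switched on by p53 and other stress signals and holds cells out of the cycle. Its values were 1244, 729, 121 and 476 in Con-Veh and 69.7, 130, 73.5 and 299 in Con-DHT. The Con-Veh livers were far apart from each other, and Con-Veh 3 lay inside the range of Con-DHT. Cdkn1a had the largest log2 fold change of the 33 genes, -2.0 (SE 0.67, 95% interval -3.48 to -0.52), and missed the threshold with limma (adjusted p = 0.10) and edgeR (adjusted p = 0.074). It passed with DESeq2 (adjusted p = 0.047), and with limma when Con-Veh 3 was left out (log2 fold change -2.66, adjusted p = 0.017). Cdkn1b, which encodes p27, was 497 ± 48.7 (SD, n = 4) in Con-Veh and 532 ± 66.9 in Con-DHT, and Cdkn2c, an inhibitor of CDK4 and CDK6, was 133 ± 16.9 and 111 ± 9.16, both short of the threshold (limma adjusted p = 0.65 and 0.24). Of 11 neutrophil markers 3 had a row, and their summed values, 94.5% of them from Lcn2, were 1757, 2797, 157 and 187 in Con-Veh and 94.2, 136, 354 and 77.2 in Con-DHT. They were highest in Con-Veh 1 and Con-Veh 2, which also had the highest Cdkn1a. The order was not shared by the other livers: the sum was 354 and Cdkn1a 73.5 in Con-DHT 3, and 77.2 and 299 in Con-DHT 4. Lcn2, which is also an acute phase gene of hepatocytes, was 1674, 2708, 144 and 168 in Con-Veh and 58.9, 114, 343 and 45.7 in Con-DHT. Prtn3, a granule protease, was 62.7, 79.1, 5.99 and 13.1 in Con-Veh and 7.85, 0.968, 3.06 and 7.61 in Con-DHT, so that it was highest in the same livers. Ltf, the lactoferrin gene, was 10.6 on average in Con-Veh and 20.2 in Con-DHT (log2 fold change 0.88, limma adjusted p = 0.27). The defining neutrophil genes S100a8, S100a9, Ly6g, Elane and Mpo had no row in the table, and the part of these cells in the Cdkn1a values was not tested.

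**Figure D2:**
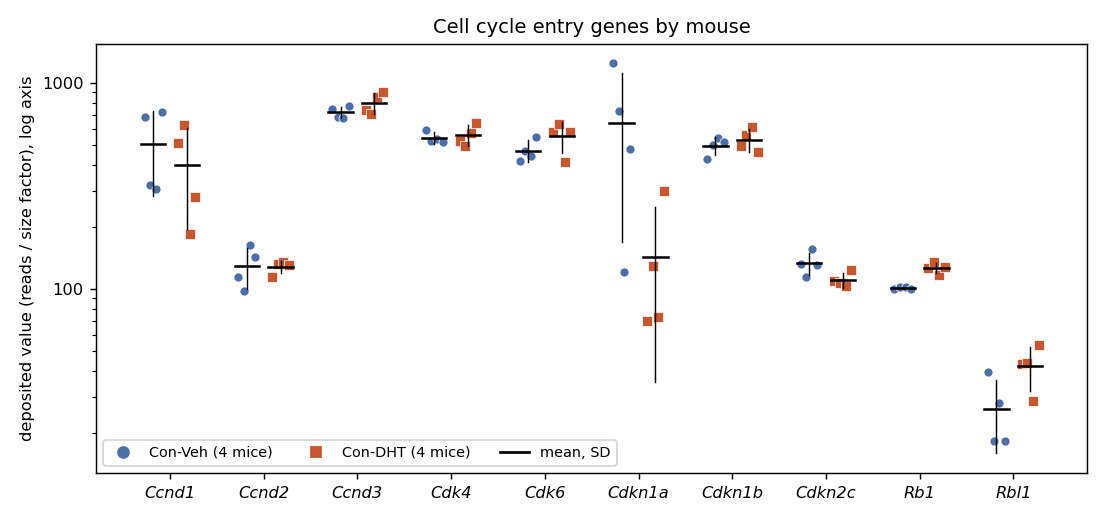
Deposited values (vertical log axis) of cell cycle entry genes, kinase inhibitors and RB family members in each of 4 Con-Veh and 4 Con-DHT livers, with the mean (thick bar) and SD (thin line). Cdkn1a spans from 69.7 to 1244, and Rb1 lies between 100.04 and 102.8 in Con-Veh and between 117 and 135 in Con-DHT.

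The RB and E2F factors that these kinases act on did not pass the test. Rb1, the retinoblastoma gene that holds E2F factors in check, was 100.04, 102.3, 102.8 and 100.09 in Con-Veh and 127, 135, 117 and 128 in Con-DHT. Every Con-DHT liver lay above every Con-Veh liver, with a log2 fold change of 0.32 (SE 0.10), and the gene missed the threshold (limma adjusted p = 0.091). Rbl1, which encodes the related protein p107, was 26.04 ± 10.1 (SD, n = 4) in Con-Veh and 42.1 ± 10.2 in Con-DHT, with overlapping groups and a log2 fold change of 0.71 (limma adjusted p = 0.17). E2f1, an activating E2F, was 40.2 ± 4.24 and 41.7 ± 2.21. E2f8, a repressing E2F, was 276 ± 55.2 and 257 ± 91.7. Exons of neighbouring genes on the other strand cover 8.11% (Rcbtb2) and 6.78% (Lpar6) of the exon bases of Rb1. Among 13 further genes of the RB and E2F family and its partners, none passed the test. The most abundant, Rbbp4, a histone binding partner of RB, was 954 ± 52.6 in Con-Veh and 1113 ± 95.8 in Con-DHT without overlap (log2 fold change 0.22, limma adjusted p = 0.13).

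The clearest increases among the 33 genes were in the MCM helicase. Mcm6 (ENSMUSG00000026355, chromosome 1) was 55.0, 66.6, 56.9 and 47.9 in Con-Veh and 89.3, 98.7, 98.0 and 107 in Con-DHT. The lowest Con-DHT liver stood well above the highest Con-Veh liver. The log2 fold change was 0.79 (SE 0.14, 1.73-fold, limma adjusted p = 0.0090), and Mcm6 passed whichever of the 8 libraries was left out. Mcm4 (ENSMUSG00000022673, chromosome 16) was 39.6, 36.7, 39.9 and 26.98 in Con-Veh and 78.5, 61.0, 46.9 and 77.2 in Con-DHT. All 4 Con-DHT livers were above the Con-Veh livers, Con-DHT 3 by the least. The log2 fold change was 0.85 (SE 0.21, 1.80-fold, limma adjusted p = 0.039), and the call was lost in 7 of 8 cases when a library was left out, with adjusted p-values from 0.058 to 0.11. It held only without Con-DHT 3 (adjusted p = 0.023). These values rest on 31 to 80 reads per library for Mcm4 and 50 to 102 for Mcm6.

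The other subunits of the same ring did not pass. Mcm2 was 51.9 ± 12.7 (SD, n = 4) in Con-Veh and 53.6 ± 8.87 in Con-DHT, Mcm3 49.6 ± 9.87 and 46.7 ± 7.63, Mcm5 19.4 ± 9.30 and 22.1 ± 6.23, and Mcm7 244 ± 16.0 and 222 ± 22.7. Their log2 fold changes were 0.067, -0.080, 0.28 and -0.14, those of Mcm3 and Mcm7 turned positive with spike-in scaling, and the limma adjusted p-values were between 0.46 and 0.89. The 95% interval for Mcm7, the most abundant of the ring, was -0.36 to 0.086, which lies below the interval of Mcm6 (0.48 to 1.10), while that for Mcm5 (-0.59 to 1.14) includes it. Whether the subunits differed from each other was not tested. Exons of Ap4m1 on the other strand cover 7.25% of the exon bases of Mcm7, and no overlap was found for Mcm4 or Mcm6.

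The genes that load and start the helicase were followed in a list of 19, of which 15 had a row and 1 passed. That gene, Mcm10 (ENSMUSG00000026669, chromosome 2), which helps to switch the loaded helicase on, had the largest change of all cell cycle genes examined that passed the test. It was 272, 456, 478 and 491 in Con-Veh and 1279, 1144, 820 and 1082 in Con-DHT. The groups were far apart, with the lowest vehicle liver also apart from its own group. The log2 fold change was 1.37 (SE 0.20, 2.58-fold, limma adjusted p = 0.0029), and Mcm10 passed with each library left out in turn. It also passed with spike-in scaling. In that fit the spread of the single gene between mice did not enter the test, and the median of all tested genes was 0.19. Per kb of exon, its mean level over the 8 livers was 97.8, and those of Mcm2 to Mcm7 ran from 5.20 for Mcm5 to 52.7 for Mcm7. In Con-Veh alone Mcm10 and Mcm7 were level (55.1 for each), and in Con-DHT they were 140.55 and 50.27. Mcm8 and Mcm9, chosen after their values were seen because they share the family name, were 23.3 ± 1.84 and 25.8 ± 5.34, and 78.9 ± 7.19 and 71.1 ± 6.04. Over the whole list of 15, 10 log2 fold changes were above 0 and 5 below, with a median of 0.10. Orc1, Cdc6, Cdc7 and Gins2 had no row.

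**Figure D3:**
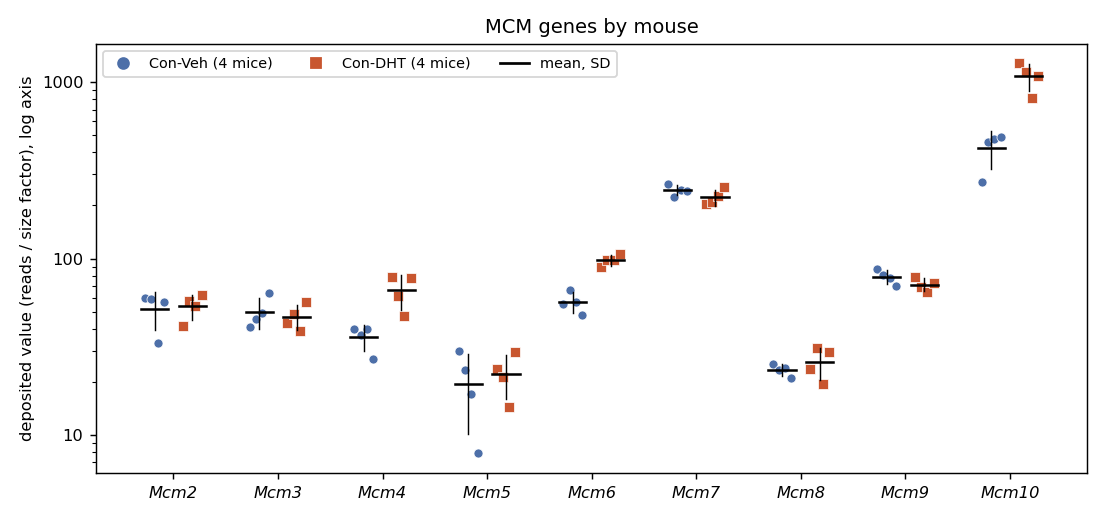
Deposited values (vertical log axis) of the MCM genes in each of 4 Con-Veh and 4 Con-DHT livers, with the mean (thick bar) and SD (thin line). Mcm4, Mcm6 and Mcm10 are separated between the groups, and Mcm2, Mcm3, Mcm5, Mcm7, Mcm8 and Mcm9 overlap.

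None of the 4 genes of DNA synthesis passed. Pcna, the sliding clamp of the replication fork, was 303 ± 25.2 (SD, n = 4) in Con-Veh and 281 ± 37.1 in Con-DHT (log2 fold change -0.11, and 0.084 with spike-in scaling). The ribonucleotide reductase subunits, which supply deoxynucleotides, were 116 ± 22.3 and 132 ± 10.2 for Rrm1 and 34.4 ± 13.1 and 42.2 ± 8.94 for Rrm2. Tyms, the thymidylate synthase, was 63.8, 65.6, 70.9 and 59.2 in Con-Veh and 76.5, 102, 69.4 and 102 in Con-DHT. Of these livers only Con-DHT 3 fell inside the vehicle range, and the log2 fold change of 0.41 missed the threshold (limma adjusted p = 0.16). In a list of 30 fork and nucleotide genes, 27 had a row, none passed, and 11 were above and 16 below 0 with a median of -0.070. Its most abundant gene, Tk1, a thymidine kinase, was 751 ± 362 and 547 ± 216 (log2 fold change -0.40, limma adjusted p = 0.60).

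Several cyclins and kinases of S phase and mitosis were near the table's floor. Ccne1, Ccna2, Ccnb2 and Cdk1 had 87, 135, 123 and 112 reads over the 8 libraries, and Plk1 had 109. Ccna2 (cyclin A2) was 19.5 ± 9.30 (SD, n = 4) in Con-Veh and 14.5 ± 5.45 in Con-DHT, Ccnb2 (cyclin B2) 18.3 ± 8.54 and 12.8 ± 5.05, and Cdk1, the kinase they activate for mitosis, 11.2 ± 4.44 and 16.8 ± 4.93. At these depths the 95% interval of the log2 fold change was -1.18 to 0.45 for Ccna2, -1.27 to 0.35 for Ccnb2 and -0.24 to 1.43 for Cdk1, so that only large changes could have been detected with these samples. Ccne1 (cyclin E1) was 8.58 ± 5.00 and 13.3 ± 6.60, and Ccne2 (cyclin E2) 29.2 ± 8.00 and 30.4 ± 7.01. Cdk2 was better measured, with 172 ± 12.9 and 198 ± 23.9 (log2 fold change 0.20, 95% interval -0.052 to 0.45, limma adjusted p = 0.33). Exosc9 and Ints8 on the other strand cover 12.5% of the exon bases of Ccna2 and 17.4% of those of Ccne2.

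Among the mitotic genes, Aurka (ENSMUSG00000027496, chromosome 2) was lower in Con-DHT. It encodes Aurora A, a kinase that matures centrosomes and builds the spindle. The values were 55.0, 76.2, 76.9 and 63.5 in Con-Veh and 28.5, 32.9, 37.8 and 34.8 in Con-DHT. Every Con-DHT liver lay below every Con-Veh liver. The log2 fold change was -0.99 (SE 0.17, 0.502 of the vehicle level, limma adjusted p = 0.0080), and Aurka passed whichever of the 8 libraries was left out, on 29 to 79 reads per library.

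Mki67 and Top2a, both widely used markers of dividing cells, pointed in opposite directions and neither passed. Mki67, which encodes the antigen Ki-67, was 71.5, 82.0, 59.9 and 56.6 in Con-Veh and 35.3, 25.2, 13.3 and 63.0 in Con-DHT. Of the Con-DHT livers, 3 were below the vehicle range, and Con-DHT 4 lay within it. The log2 fold change was -1.15 (SE 0.39, 95% interval -2.01 to -0.29, limma adjusted p = 0.10), and without Con-DHT 4 it was -1.51 and passed (limma adjusted p = 0.027). Top2a, the topoisomerase that untangles chromosomes, was 49.5, 40.5, 15.0 and 27.9 in Con-Veh and 33.4, 46.5, 52.1 and 80.4 in Con-DHT, with overlapping groups and a log2 fold change of 0.72 (95% interval -0.11 to 1.54, limma adjusted p = 0.28). Plk1, a kinase of mitotic entry, was 13.6 ± 6.28 (SD, n = 4) and 13.8 ± 4.15, and Birc5, which encodes survivin, was 22.9 ± 9.40 and 17.9 ± 2.58. No single direction was shared by the 5 measured mitotic genes, of which 2 had a log2 fold change above 0 and 3 below.

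**Figure D4:**
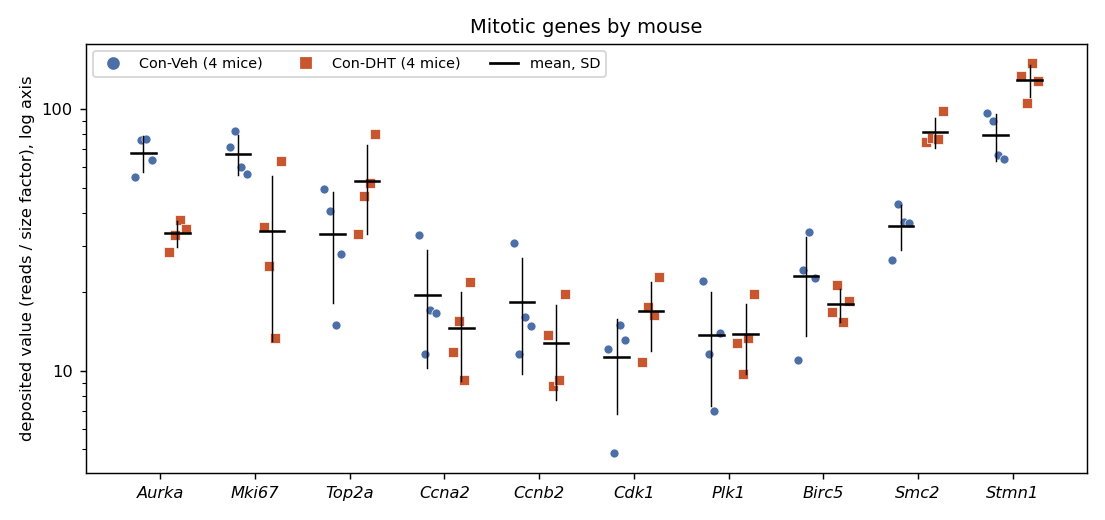
Deposited values (vertical log axis) of mitotic genes in each of 4 Con-Veh and 4 Con-DHT livers, with the mean (thick bar) and SD (thin line). Aurka is lower in every Con-DHT liver, Smc2 and Stmn1 are higher in every Con-DHT liver, and the groups overlap for Mki67, Top2a, Ccna2, Ccnb2, Cdk1, Plk1 and Birc5.

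A wider list of 52 spindle and cytokinesis genes had 35 rows, of which 2 passed, both higher in Con-DHT, and the median log2 fold change was -0.038 with 16 above and 19 below 0. Smc2, a core subunit of the condensin complexes that compact chromosomes, was 26.4, 43.4, 36.9 and 36.6 in Con-Veh and 74.6, 77.4, 76.5 and 97.8 in Con-DHT. The groups were widely separated, with a log2 fold change of 1.18 (SE 0.18, limma adjusted p = 0.0047) that passed whichever library was left out. Stmn1, which encodes the microtubule regulator stathmin, was 96.7, 89.8, 66.9 and 64.4 in Con-Veh and 133, 105, 149 and 128 in Con-DHT. The gap between the groups was small beside their spread, with a log2 fold change of 0.70 (SE 0.17, limma adjusted p = 0.034), and it passed in 2 of 8 cases with a library left out. Bub3, a checkpoint protein and the most abundant of the list, was 399 ± 93.5 (SD, n = 4) and 382 ± 18.5. The absent members were Aurkb, Bub1, Ttk, Cenpe, Cenpf, Kif2c, Kif4, Tpx2, Nuf2, Ndc80, Cdca2, Cdca8, Hmmr, Cdkn3, Cdc25c, Knl1 and Ncapg, most of them genes of the kinetochore and spindle.

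In the last lists, no gene passed among 16 measured genes of other kinase inhibitors and p53 targets, with 5 log2 fold changes above and 11 below 0 and a median of -0.24. The most abundant, Trp53inp1, was 2166 ± 1316 (SD, n = 4) in Con-Veh and 1571 ± 416 in Con-DHT. DESeq2 called Gadd45a higher and Eda2r lower in this list, limma called Gadd45a without Con-Veh 3 and Bax without Con-DHT 4, and these genes are named after their values were seen. Among 17 measured immediate early and growth factor genes of liver regeneration, none passed, with 8 above and 9 below 0. Egfr, the receptor of epidermal growth factor and the most abundant of them, was 5054, 3947, 2532 and 1916 in Con-Veh and 8807, 3878, 3948 and 9878 in Con-DHT. Con-DHT 1 and Con-DHT 4 were high and the other Con-DHT livers lay within the vehicle range (log2 fold change 0.95, limma adjusted p = 0.16), and Egfr passed only with spike-in scaling. Over all of these lists, 3 of 123 genes with a row passed, 2.44%, beside the 7.21% of all tested genes.

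Levels within the 33 genes differed much more than levels between the groups. Per kb of exon, the mean over the 8 livers was 169 for Cdk4, 121 for Pcna, 113 for Cdkn1b, 111 for Cdkn1a, 96.5 for Ccnd1 and 86.7 for Ccnd3. At the other end it was 5.05 for Mki67, 4.79 for Top2a, 4.17 for Ccna2, 4.11 for Ccne1 and 2.85 for Cdk1. The order did not follow the role in the cycle, since the replication clamp Pcna stood near the top, and the entry cyclins Ccnd2 (13.7), Ccne2 (8.52) and Ccne1 lay below the mitotic gene Aurka (20.03). Ccnd1 and Cdkn1a varied between mice by more than their distance from their neighbours in the order. Cdkn1a was 180.8 per kb in Con-Veh, above Cdk4 (166.7), and 40.2 in Con-DHT, so its place holds for the mean over both groups only. Exon lengths are the union of annotated exons, so isoform use can shift these levels.

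**Figure D5:**
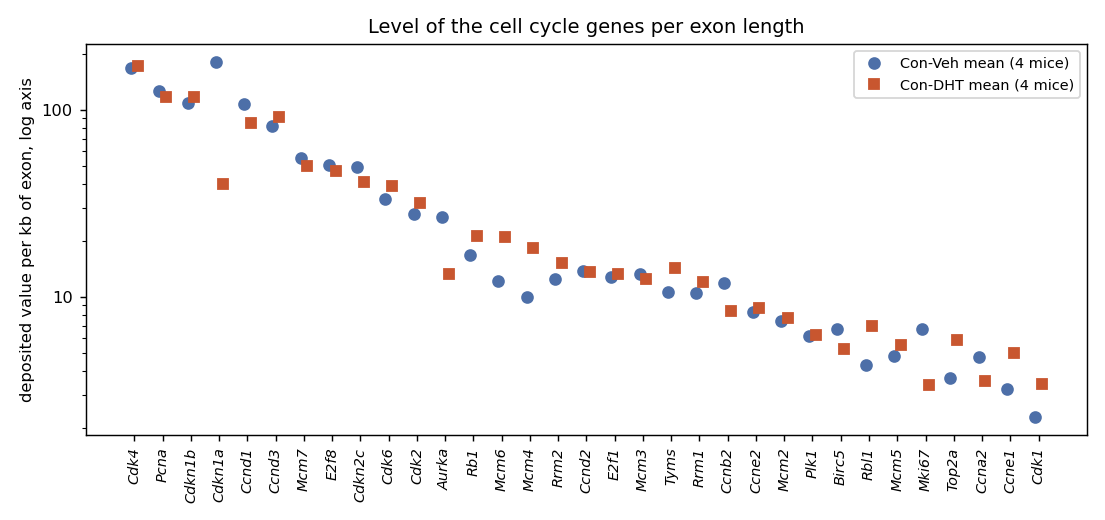
Mean deposited value per kb of exon (vertical log axis) of the 33 measured cell cycle genes in Con-Veh and Con-DHT (4 livers each), ordered by the mean over the 8 livers. The order runs from Cdk4 (169) to Cdk1 (2.85). The group means of Cdkn1a, Mki67, Aurka, Mcm4 and Mcm6 are visibly apart, as are those of Rbl1, Top2a, Ccne1 and Cdk1. Of these genes only Aurka, Mcm4 and Mcm6 passed the test.

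Markers of other liver cell types moved between the same groups. Of 12 macrophage and Kupffer cell markers, 8 were lower in Con-DHT and none higher, with a median log2 fold change of -0.54. They were Clec4f, Cd5l, Vsig4, Cd68, Lyz2, C1qa, C1qb and C1qc, of which Clec4f had overlapping groups and passed in only 2 of 8 cases with a library left out. Summed over the list, the values were 11015, 11646, 9824 and 10823 in Con-Veh and 8635, 6502, 7405 and 6983 in Con-DHT, and the most abundant gene was Cd5l (23.6% of the sum). Of 8 sinusoidal endothelial markers, Stab2 and Lyve1 were lower and 6 did not pass, with a median log2 fold change of -0.22. Lyve1 passed in only 2 of 8 cases with a library left out and not with edgeR (adjusted p = 0.052). In this list 6 log2 fold changes were below 0 and 2 above, Kdr (0.00026) and Ehd3 (0.15). The summed values, 27.7% of them from Stab2, were 5363 ± 299 (SD, n = 4) in Con-Veh and 4448 ± 387 in Con-DHT. Of 8 B and plasma cell markers 4 had a row, Igkc was lower, though in only 1 of 8 cases with a library left out and not with edgeR (adjusted p = 0.058), and the summed values, 46.5% of them from Igkc, were 207 ± 19.5 and 124 ± 30.4, and Cd79a, Ms4a1 and Mzb1 were among those without a row. Of 10 T and NK cell markers only Cd4, with 66.2% of the summed value, and Gzma had a row, and the summed values were 24.3 ± 3.84 in Con-Veh and 38.5 ± 6.68 in Con-DHT. Cd4 was higher in Con-DHT (11.4 against 30.2). Gzma was 12.9 in Con-Veh and 8.30 in Con-DHT (log2 fold change -0.64, limma adjusted p = 0.36), and Cd3e, Cd3d, Cd3g and Cd8a had no row. None of the markers of hepatocytes, neutrophils, erythroid cells, stellate cells or cholangiocytes passed with limma, while DESeq2 called Prtn3 (adjusted p = 0.0019) and Lcn2 (adjusted p = 0.045) lower and the erythroid gene Alas2 (adjusted p = 0.018) higher. Whether these shifts have a part in the differences of Aurka, Mki67, Mcm4, Mcm6, Mcm10 or Smc2 was not tested.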

How the data were processed

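Per the study's methods and the submitters' processing notes, the authors trimmed the reads with Trimmomatic, aligned them with STAR (GRCm39), counted uniquely mapped exon reads with featureCounts and used DESeq2. The deposited values are a normalized signal, read counts divided by 1 size factor per library, and dividing by the worth of a read gave whole numbers (within 0.01) for 100% of values. Symbols, chromosomes and exon lengths came from GENCODE M21 (GRCm38).

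The 4 Con-DHT and 4 Con-Veh libraries were compared with limma 3.58.1 (eBayes with an intensity trend, R 4.3.3) on log2(value + 1) for the mouse genes whose mean value reached 10, with Benjamini-Hochberg adjustment. The pseudocount of 1 understates the fold changes of low genes. edgeR 4.0.16 and DESeq2 1.42.0 were run on recovered reads. The members and lists were chosen with earlier results of these data known. Named are all members, list genes that passed and each list's most abundant gene. Other list genes and the cell type markers printed singly were picked after their values were seen. Libraries of a group differed beyond sampling noise (chi-square per degree of freedom 19.2 to 61.7 over 12 pairs). The tests were tried on simulated data. A detail of the mouse line and a marker gene are not reported here.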

Additional observations from a re-analysis of the deposited data

Results flagged for a closer look

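The 33 members and the list genes that passed or were most abundant in their list, 41 genes in all, were screened for outlying libraries. Among them, 4 had a library set apart from the other 3 of its group by more than Dixon's 95% critical value for 4 samples. Cell type markers and other genes named in the text were not screened. Each gene was screened in both groups. Chance flags about 1 in 20 groups, so about as many flags as were found are to be anticipated among this many genes. Mcm10, the helicase activator, was 271.5 in Con-Veh 1 and between 455.5 and 490.9 in the other Con-Veh livers. Mcm2, a subunit of the helicase ring, was 32.94 in Con-Veh 3 and between 56.57 and 59.36 in the others. Smc2, the condensin subunit, was 97.83 in Con-DHT 4 and between 74.56 and 77.42 in the others. Ccnd2, the cyclin D2 gene, was 114.8 in Con-DHT 1 and between 131.5 and 134.7 in the others.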

How the results depend on the processing

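Limma called 1032 genes, and the count was 648 with a mean of at least 50, 1569 with DESeq2, 637 with spike-in scaling (636 with edgeR and spike-in scaling, added after seeing the data), and 633 to 905 with a library left out. With spike-in scaling 562 calls were higher and 75 lower (88.2% higher), beside 658 and 374 (63.8%) in the main comparison. The spike-in share of reads was 1.68% to 3.61% over the libraries. Of the 33 genes, 1 passed with spike-in scaling under either tool, namely Cdkn1a (adjusted p = 3.9e-07 with limma and 8.3e-08 with edgeR), so that 0 were called higher. In both fits the prior degrees of freedom were infinite, so that the spread of the single gene between mice did not enter the test. The median log2 fold change of the 33 genes was then 0.26. In the same fits Mcm4 had adjusted p-values of 0.074 and 0.078, Mcm6 of 0.071 and 0.12, and Aurka of 0.32 and 0.28, while Mcm10, Smc2, Wee1 and Egfr passed (Egfr with adjusted p-values of 0.0047 and 0.0032).

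The number of the 33 genes called higher was 1 with a mean of at least 50, where Mcm4 was lost (adjusted p = 0.060), and 1 to 2 with a library left out. Those called lower were 2 with DESeq2 and 1 to 2 with a library left out. In the other lists DESeq2 called 5 genes. Stmn1 was lost with the replicate block (adjusted p = 0.075) and spike-in scaling (adjusted p = 0.10). Rb1 passed without the intensity trend (adjusted p = 0.045). Of the fits that drop 1 library, Mcm4 was called only in that without Con-DHT 3 (adjusted p = 0.023).

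Same-numbered mice of the groups did not deviate together (correlations of -0.19 to -0.0060), so that the numbers do not pair the samples. With the replicate block, limma called 700 genes and, of the 33, Mcm6 and Aurka, 1 higher and 1 lower, and in the other lists Mcm10, Smc2 and Jun. Wee1 and Jun are named after their values were seen.

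Some genes that had not passed the test changed sign. Ccnd2 was -0.014 with edgeR and -0.018 with DESeq2, and quantile normalization gave -0.051 for Ccne2, -0.032 for E2f1 and -0.15 for Plk1. With spike-in scaling E2f8 was 0.057, Mcm3 0.11, Mcm7 0.062, Pcna 0.084 and Bub3 0.16, and with edgeR and spike-in scaling E2f8 was 0.044, Mcm7 0.0099, Pcna 0.054 and Bub3 0.11. With a library left out, log2 fold changes ran from -0.12 to 0.13 for Ccnd2, -0.026 to 0.097 for Cdk4, -0.097 to 0.24 for Ccne2, -0.13 to 0.19 for Mcm2, -0.17 to 0.044 for Mcm3, -0.079 to 0.52 for Mcm5, -0.18 to 0.33 for Plk1, -0.15 to 0.11 for Bub3 and -0.56 to 0.031 for Trp53inp1. Of 438 values for the 41 screened genes under other settings 407 kept direction and side of the threshold, and of 328 with a library left out 296 did. The cause of these changes was not tested. Genes with about 100 reads over the 8 libraries allow only large changes to be seen.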
